A study of Danio rerio with 18 samples.

Results

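Cells sorted as retinal ganglion cells were taken from adult zebrafish 12 h after transection of the optic nerve (12 hours post injury, hpi). They were compared with cells sorted in the same way at 6 hpi, with 3 libraries at each time. Rod and cone genes held a larger share of counts than ganglion cell markers in every library, as given below. These 6 injured libraries were chosen by their titles alone, out of 18 libraries in the series. All fish carried isl2b:GFP, a transgene that labels ganglion cells with green fluorescent protein, were 3 to 5 months old, and were kept at 28.5 C with 14 h of light and 10 h of dark. The injured group is the eyes whose nerve had been cut, at 12 hpi or at 6 hpi. The control group, used for reference, is the uninjured contralateral eyes of isl2b:GFP fish at 12 hpi and at 6 hpi, with 3 libraries each. Each library came from 1000 GFP-positive cells, sorted by flow cytometry from dissociated eyes and amplified as full-length cDNA. Surgery was done on 5 replicates at each time per the labels, and 3 of them are analysed here. The labels give neither the number of fish behind a library nor the clock hour of collection. The p-values therefore measure only the spread between these libraries, which may be partly technical.

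Ganglion cells are the output neurons of the retina, and their axons form the optic nerve. Cutting the nerve severs these axons, and in zebrafish, unlike in mammals, most of the cells survive and regrow their axons to the brain. Early events in injured neurons include induction of stress-activated transcription factors of the AP-1 and ATF families, signalling by cytokine receptors through JAK kinases and STAT3, and the later switch to growth genes such as sox11 and gap43. SOCS and CISH proteins are made when STAT proteins are active and feed back to restrain the receptors.

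The 3 injured 12 hpi libraries held 27889895, 24723922 and 19001181 counts, and the 3 injured 6 hpi libraries held 23422429, 28329194 and 26046211. Ganglion cell transcripts were present in all 6 libraries at uneven levels. In read counts scaled to library size (CPM), isl2b, the transcription factor gene whose regulatory region drives the transgene, had 12.2, 131 and 298 CPM in injured 12 hpi libraries, against 21.9, 253 and 67.9 CPM in injured 6 hpi libraries. The low libraries, replicate 1 at both times and replicate 3 at 6 hpi, were low for 28 ganglion cell markers together, whose summed share of counts was 0.0923%, 0.264% and 0.439% at 12 hpi and 0.0893%, 0.33% and 0.118% at 6 hpi. Genes of rods and cones held a far larger share in every library, with 26.9%, 22.2% and 18.2% of counts at 12 hpi and 26.4%, 17.8% and 25.8% at 6 hpi over 46 genes. A share of counts is not a share of cells, but the labelled cell type's own markers held a small part of every library beside those of photoreceptors. Neither share differed between the times beyond its spread (exact two-sided permutation p = 0.6 for ganglion cell and 1.0 for rod and cone genes, where 3 libraries against 3 cannot go below 0.1). In such libraries fewer cells of a type and less RNA per cell cannot be told apart.

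**Figure D1:**
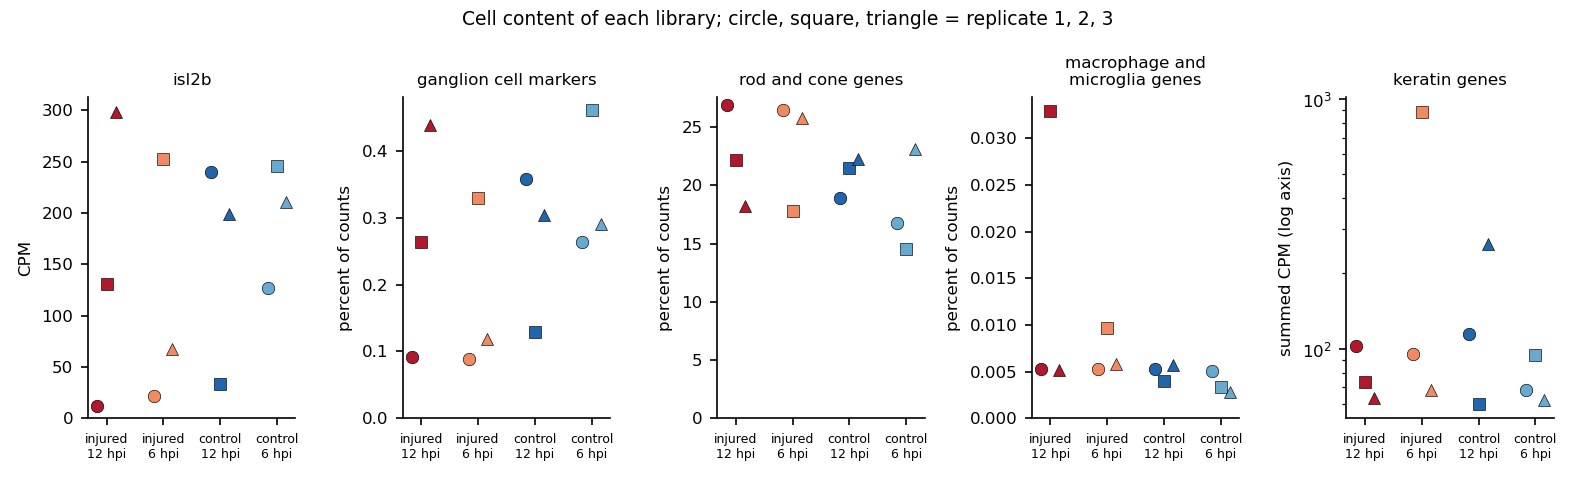
Cell content of the injured and control libraries at 12 and 6 hpi, 1 point per library. From left to right the first axes give isl2b in CPM and the percent of counts in ganglion cell markers and in rod and cone genes. The next gives that of macrophage and microglia genes, and the last the summed CPM of the keratin list on a log axis. The ganglion cell share spans 0.0893% to 0.439% among injured libraries. Injured 12 hpi replicate 2 alone reaches 0.0329% for macrophage genes, and injured 6 hpi replicate 2 alone reaches 886 CPM for the keratin list.

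Some libraries stood apart. Injured 12 hpi replicate 2 had 0.0329% of counts in macrophage and microglia genes, while the other 5 injured libraries had 0.00516% to 0.00973%. Injured 12 hpi replicate 3 had 0.0496% in oligodendrocyte genes, while the other 5 had 0.00216% to 0.0039%. Injured 6 hpi replicate 2 had 886 CPM summed over a keratin list of 17 genes, while the other 5 had 63.4 to 103 CPM. Keratins are expressed in surface epithelia. The list was drawn from gene names starting with krt, with icn2 and krcp added, which are not named as keratins. It was chosen after its values were seen. Between libraries, log2 CPM correlated with r = 0.913 to 0.934 within a time and with r = 0.912 to 0.936 across the times, a description over genes that are not independent.

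No gene passed an adjusted p of 0.05 between injured 12 hpi and injured 6 hpi. The test was edgeR's quasi-likelihood test with Benjamini-Hochberg adjustment over 17527 genes, so that 0% were called, and the smallest adjusted p was 0.51. At an unadjusted p under 0.05 there were 747 genes, 4.26% of those tested, of which 402 (2.29%) were higher and 345 (1.97%) lower at 12 hpi. That is fewer than the 876 that this threshold gives by chance in independent tests. The 3 libraries of one time lay wholly above or below the 3 of the other for 1516 genes (8.65%), higher at 12 hpi for 742 (4.23%) and lower for 774 (4.42%). By DESeq2 13 genes passed, 7 higher and 6 lower, among them cox4i1l, cremb, pgm2, hspb8 and the keratin genes krt17 and krt97. By limma voom none passed, with 1125 at an unadjusted p under 0.05. Intervals per gene, not adjusted for the number of genes, give the range of change that the values of that gene allow. They do not give the size of change that the adjusted test could call. The genes cox4i1l and cremb, with log2 fold changes of 1.75 and 4.91, were not called. Among 9032 genes whose mean log2 CPM over all 18 libraries was 3 or more, the 95% interval of the fold change excluded a 2-fold difference in either direction for 7402 (82.0%) and a 4-fold one for 8827 (97.7%). The genes described below therefore did not pass the adjusted threshold, and their values are given as measured. The adjusted p was 0.51 for cox4i1l and cremb and 1 for each of the others.

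**Figure D2:**
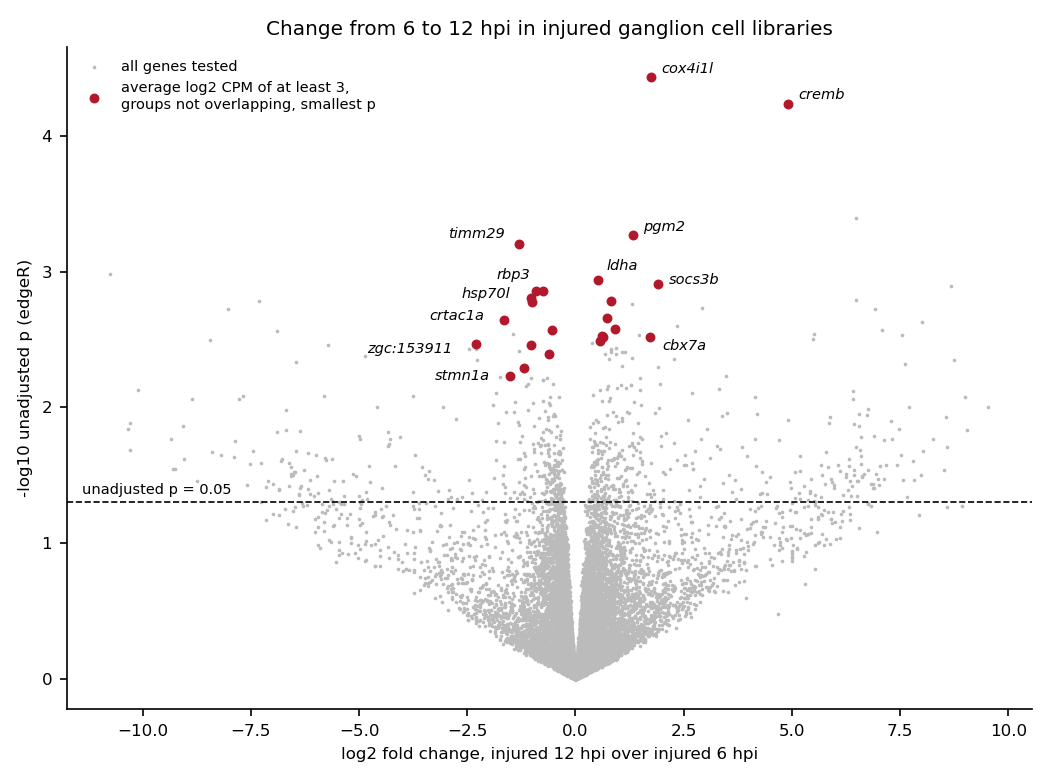
Difference between injured 12 hpi and injured 6 hpi libraries for 17527 genes, with the log2 fold change (12 hpi over 6 hpi) on the horizontal axis and −log10 of edgeR's unadjusted p on the vertical axis. Red points are the 12 genes each way with the smallest p among those with a mean log2 CPM of 3 or more whose times did not overlap; cox4i1l and cremb lie highest, and none passed after adjustment.

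The smallest p belonged to cox4i1l (ENSDARG00000012388, chr24:28231602-28245872, minus strand), which encodes a form of subunit 4 of cytochrome c oxidase, the last complex of the respiratory chain. It had 33.4, 39.3 and 31.2 CPM in injured 12 hpi libraries, against 10.9, 11.05 and 8.93 CPM in injured 6 hpi libraries. The times were far apart for this gene, with a log2 fold change of 1.75 ± 0.32 (SE), an unadjusted edgeR p of 3.68e-05 and a DESeq2 adjusted p of 0.000745. Control eyes showed the same direction, with 18.2, 37.7 and 31.4 CPM at 12 hpi, against 13, 16.1 and 16.9 CPM at 6 hpi. Most of the respiratory chain did not share it: of 101 tested genes of the chain and ATP synthase, cox4i1l included, 93 had a fold change below 0. The median log2 fold change was −0.16. An unadjusted p under 0.05 was reached by 2 genes, cox4i1l and cox6b1, both higher at 12 hpi, beside 4.26% of all genes. The subunit gene cox6b1 had 43.9, 42.2 and 51.6 CPM at 12 hpi, against 36.4, 29.7 and 31.4 CPM at 6 hpi, without overlap. Its log2 fold change was 0.50 in injured and 0.21 in control eyes. Without injured 6 hpi replicate 1 the median was −0.02, with 39 of 101 above 0. In control eyes 59 of the 101 were below 0 and the median was −0.01. The mean level of this list was 7.41, 7.16 and 7.14 log2 CPM at 12 hpi, against 7.53, 7.15 and 7.35 at 6 hpi in injured libraries, so that the times overlapped.

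Next came cremb (ENSDARG00000102899, chr24:31348595-31368520, plus strand), a cAMP-responsive element modulator of the CREB family of transcription factors. It had 14.2, 17.1 and 15.01 CPM in injured 12 hpi libraries, against 0, 0.704 and 0.761 CPM in injured 6 hpi libraries, and its 3 libraries at 12 hpi lay close together. The log2 fold change was 4.91 ± 0.92 (SE), with a DESeq2 adjusted p of 0.0017. Control eyes had 4.51, 2.97 and 3.76 CPM at 12 hpi, against 0.432, 0.727 and 3.18 CPM at 6 hpi, so the injured 12 hpi libraries held more than any control library. The change differed between injured and control eyes with an unadjusted p of 0.00976, which did not pass adjustment. Its paralog crema had 27.0, 44.2 and 28.7 CPM in injured 12 hpi libraries and 21.9, 18.9 and 19.5 CPM in injured 6 hpi libraries, without overlap (log2 fold change 0.73 ± 0.20). In control eyes crema had a log2 fold change of 0.58.

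Among JAK/STAT genes, the inhibitor genes socs3b and cishb had the smallest p, and no kinase gene had an unadjusted p under 0.05. Next came the receptor gene lepr and the inhibitor gene SOCS2, with unadjusted edgeR p of 0.0261 and 0.0348. The feedback inhibitor gene socs3b (chr12:34258139-34277465, plus strand) had 8.43, 18.1 and 21.1 CPM in injured 12 hpi libraries, against 2.92, 6.76 and 2.96 CPM in injured 6 hpi libraries. The lowest 12 hpi library lay above the highest 6 hpi library, and the log2 fold change was 1.91 ± 0.49, with an unadjusted p of 0.00123. A second inhibitor gene, cishb, had 1.72, 2.57 and 2.31 CPM at 12 hpi, against 0.0959, 0.096 and 1.1 CPM at 6 hpi in injured eyes (log2 fold change 2.35 ± 0.66). This gene was called when injured 6 hpi replicate 3 was left out (log2 fold change 4.44, edgeR's Benjamini-Hochberg adjusted p = 0.0156), and in no other alternative. That library held the highest 6 hpi value, 1.1 CPM, so leaving it out widens the difference by itself. SOCS2 had 8.50, 9.96 and 7.95 CPM at 12 hpi, against 7.05, 5.54 and 5.12 CPM at 6 hpi, also without overlap. In control eyes the log2 fold changes of socs3b, cishb and SOCS2 were 0.66, 0.06 and 0.28, and the differences from injured eyes had unadjusted p of 0.0841, 0.0207 and 0.413. The span of socs3b overlaps that of pgs1 on the opposite strand, which averaged 261 counts in injured libraries beside 61 to 464 counts of socs3b. Whether counting used the strand is not given in the sources used here.

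The receptor and kinase genes named next overlapped between the times. The leptin receptor gene lepr had 3.29, 8.10 and 11.2 CPM at 12 hpi against 2.01, 2.21 and 3.51 CPM at 6 hpi in injured eyes, with a slight overlap. For il6st, the shared receptor of the interleukin 6 family, the values were 9.17, 19.04 and 16.1 CPM at 12 hpi, against 10.8, 15.2 and 5.96 CPM at 6 hpi. The kinase gene jak1 had 52.3, 95.02 and 85.1 CPM at 12 hpi, against 67.5, 61.3 and 67.2 CPM at 6 hpi. For stat3 itself, 12 hpi replicates 2 and 3 were high and replicate 1 low, with 5.76, 27.8 and 34.2 CPM against 11.7, 18.1 and 7.49 CPM at 6 hpi (log2 fold change 0.86 ± 0.54). The other SOCS3 paralog, socs3a, had 3.13, 5.25 and 4.19 CPM at 12 hpi, against 2.68, 8.04 and 2.62 CPM at 6 hpi, without separation. Of 38 tested JAK/STAT genes 4 had an unadjusted p under 0.05, all higher at 12 hpi (socs3b, cishb, SOCS2 and lepr), beside 2.29% of all genes. The list as a whole was centred on 0, with 18 genes above it and a median log2 fold change of −0.004, against 0.003 over all genes. Its mean level was 2.61, 3.23 and 3.06 log2 CPM in injured 12 hpi libraries, against 2.59, 2.99 and 2.51 in injured 6 hpi libraries. The libraries low for this list were those low for ganglion cell markers. The part of ganglion cell content in these values was not tested.

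**Figure D3:**
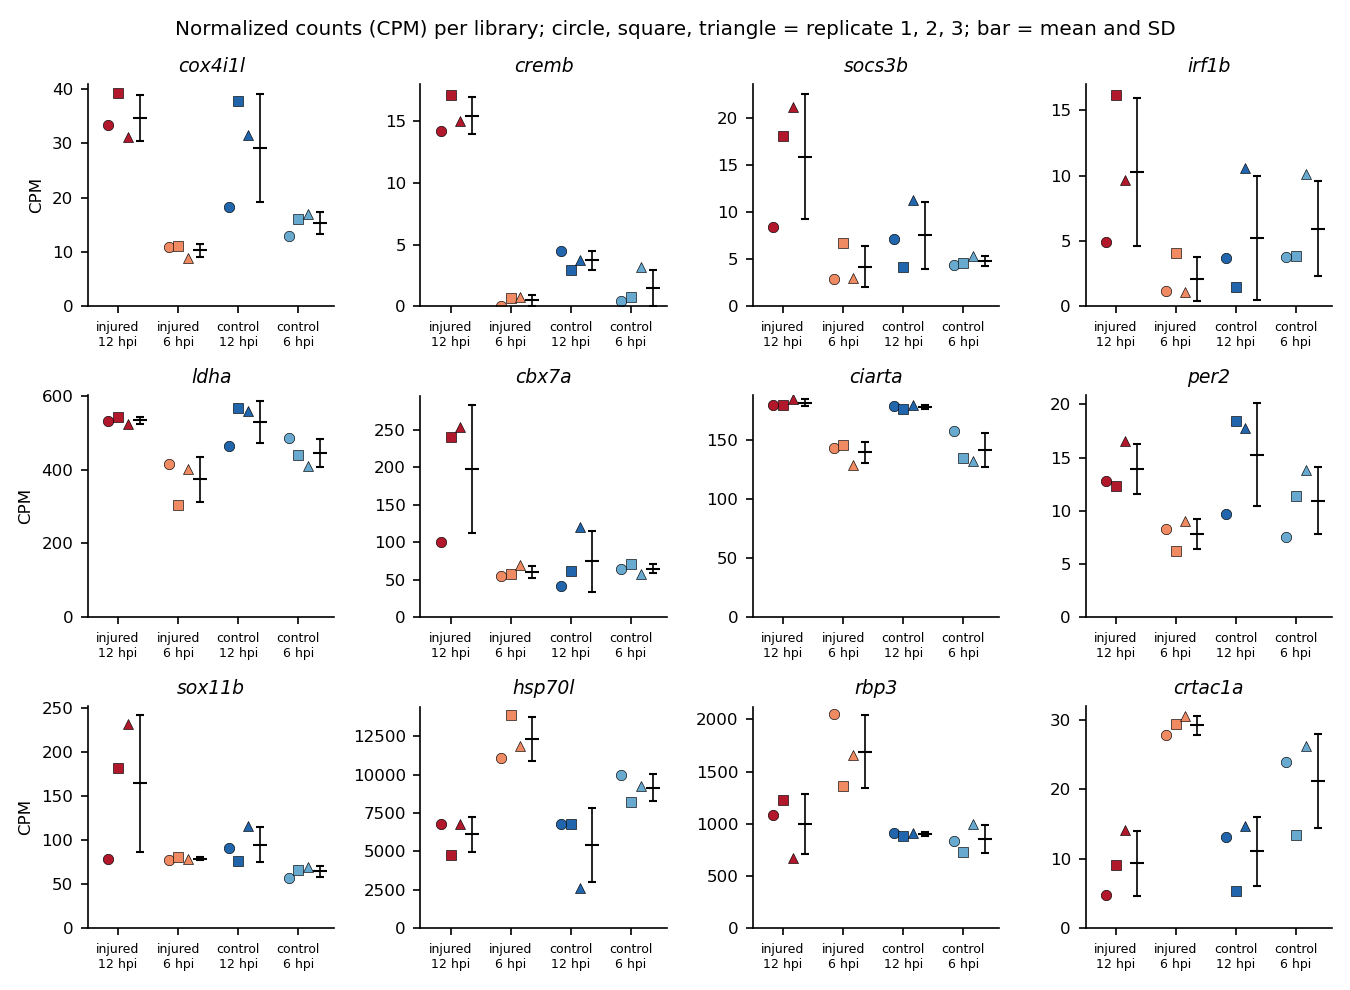
Normalized counts (CPM, linear axes from 0) of 12 genes in injured 12 hpi, injured 6 hpi, control 12 hpi and control 6 hpi libraries. Points are libraries with the shape giving the replicate number, and bars give the mean and SD of 3 libraries. For cremb the injured 12 hpi libraries at 14.2 to 17.1 CPM lie above all others, while ciarta and hsp70l separate the times in both kinds of eye.

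Genes linked to axon regeneration mostly had a fitted fold change above 0, and they were high in the same libraries as ganglion cell markers. Of 52 tested genes 45 had a higher fitted level at 12 hpi, with a median log2 fold change of 0.61, while over all genes 50.4% lay above 0. An unadjusted p under 0.05 was reached by 7, all higher (hspb8, socs3b, dpysl4, sox11b, stmn4l, gap43 and klf6a), beside 2.29% of all genes. Like the other lists, this one was chosen with earlier results of these data known, so the count is no test. The genes socs3b, hspb8 and klf6a also count in the JAK/STAT, heat shock and AP-1 lists. The transcription factor gene sox11b had 78.9, 181 and 232 CPM in injured 12 hpi libraries, against 77.3, 80.9 and 78.9 CPM in injured 6 hpi libraries. For this gene 12 hpi replicate 1 stayed at the 6 hpi level, and the log2 fold change was 1.05 ± 0.34. Its paralog sox11a had 223, 239.7 and 303 CPM at 12 hpi, against 164, 221 and 184 CPM at 6 hpi, without overlap (log2 fold change 0.43 ± 0.22). The growth cone protein gene gap43 had 121, 102 and 264 CPM at 12 hpi, against 26.6, 106 and 60.2 CPM at 6 hpi, with 6 hpi replicate 2 inside the 12 hpi range. The dihydropyrimidinase-like gene dpysl4, of a family that binds tubulin in growth cones, had 11.9, 10.2 and 18.2 CPM at 12 hpi, against 5.03, 9.41 and 3.85 CPM at 6 hpi.

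The mean log2 CPM of the regeneration list was 4.43, 5.55 and 6.13 in injured 12 hpi libraries and 4.24, 5.45 and 4.64 in injured 6 hpi libraries. That of 25 ganglion cell markers was 3.34, 5.25 and 5.95 at 12 hpi and 3.7, 5.5 and 4.18 at 6 hpi, so the same libraries were high and low in both lists. The markers also had 24 of 25 fold changes above 0, with a median of 0.56, and gap43, stmn2a, stmn2b, nefma and inab stand in both lists. Without injured 12 hpi replicate 3 the median log2 fold change was −0.01 for the regeneration list and −0.08 for the markers. Without injured 6 hpi replicate 2 it was 1.01 for the regeneration list and 1.31 for the markers. The part of ganglion cell content in the regeneration values was not tested. In control eyes 30 of the 52 regeneration genes were above 0, with a median of 0.04.

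The medians of other neuronal lists were also above 0 but smaller. Levels of ion channel genes were low in the injured libraries that were low for ganglion cell markers. Those of axonal transport genes were lowest there too, but 6 hpi replicate 3 lay close to 6 hpi replicate 2. The mean level of 46 ion channel genes was 1.06, 2.12 and 1.97 log2 CPM at 12 hpi, against 1.07, 2.25 and 1.04 log2 CPM at 6 hpi. For 29 axonal transport genes it was 4.24, 4.64 and 4.81 log2 CPM at 12 hpi, against 4.15, 4.56 and 4.48 log2 CPM at 6 hpi. The part of ganglion cell content in these lists was not tested. Of the 29 axonal transport genes 26 were above 0 (median log2 fold change 0.17), with dynll1 and mapk8ip1a, a dynein light chain and a kinesin cargo scaffold, higher under an unadjusted p of 0.05, beside 2.29% of all genes. Without injured 12 hpi replicate 3 the median of the axonal transport list was 0.06, with 18 of 29 above 0. The scaffold gene mapk8ip1a had 17.4, 17.7 and 23.2 CPM at 12 hpi, against 9.73, 11.7 and 13.5 CPM at 6 hpi, without overlap. In control eyes 8 of the 29 were above 0 and the median was −0.11. Ion channel genes had a median of 0.23 in injured and −0.37 in control eyes over 46 genes, synaptic vesicle and SNARE genes 0.14 and −0.22 over 42, and axon guidance genes 0.07 and −0.24 over 52. Without injured 12 hpi replicate 3 the axon guidance median was −0.06, with 24 of 54 above 0, and the ion channel median 0.07, while without injured 6 hpi replicate 2 the ion channel median was 0.89. At an unadjusted p under 0.05 there were 2 ion channel genes higher and 1 lower, 1 synaptic vesicle gene higher and 1 axon guidance gene higher, beside 2.29% higher and 1.97% lower over all genes. Among them kcnc1b, a voltage-gated potassium channel gene, had 3.53, 11.9 and 6.35 CPM at 12 hpi, against 1.87, 4.67 and 3.00 CPM at 6 hpi. The ephrin receptor gene epha4b had 1.92, 13.3 and 12.99 CPM at 12 hpi, against 4.08, 6.596 and 1.48 CPM at 6 hpi. Both overlapped between the times. The span of kcnc1b overlaps that of sergef on the opposite strand, which averaged 199 counts in injured libraries beside 39 to 305 counts of kcnc1b.

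**Figure D4:**
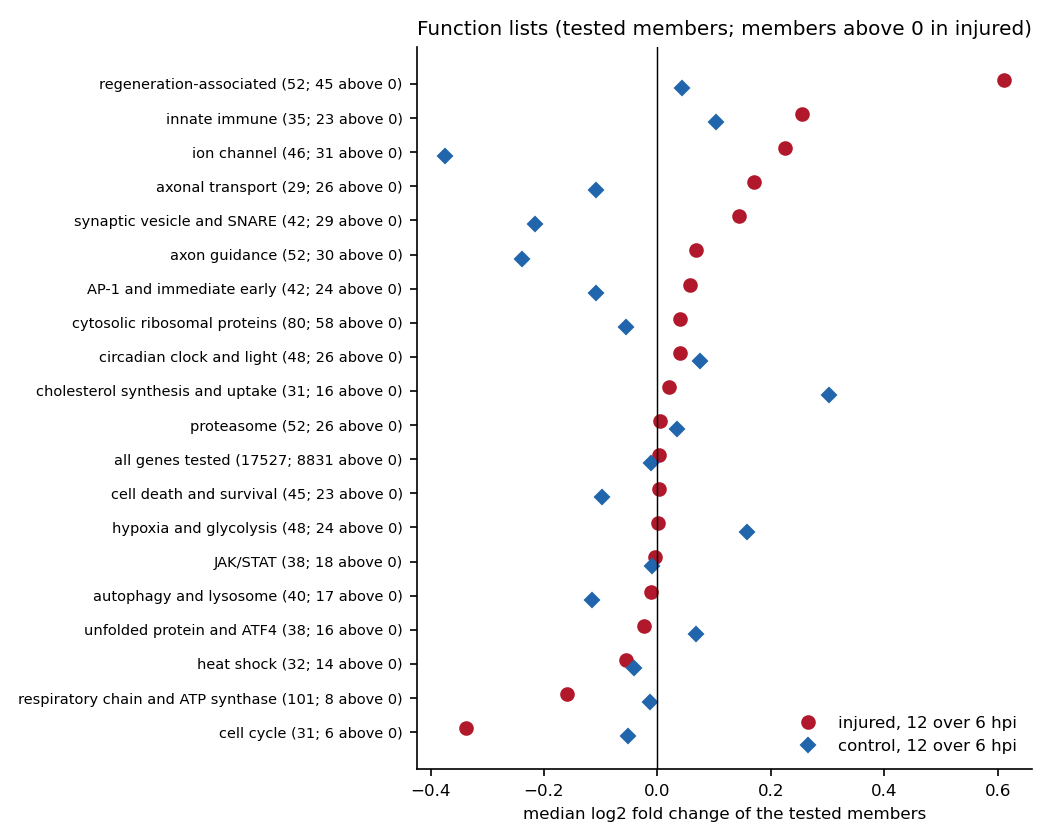
Median log2 fold change (12 hpi over 6 hpi) of the tested members of 19 function lists and of all genes, in injured eyes (red circles) and control eyes (blue diamonds). The regeneration-associated list has the highest injured median at 0.61 and the cell cycle list the lowest at −0.34, against 0.003 for all genes; no member passed the adjusted test.

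Of the AP-1 and immediate early genes, which respond within minutes to hours of injury, 24 of 42 tested were above 0, with a median log2 fold change of 0.06. This depended on 1 library: without injured 6 hpi replicate 2 the median of the AP-1 list was 0.51 with 30 of 42 above 0, and with another injured library left out it lay between −0.07 and 0.13. By limma voom with sample quality weights it was 0.36, also with 30 of 42 above 0. The mean level of the list was 2.99, 4.13 and 3.64 log2 CPM in injured 12 hpi libraries, against 2.98, 4.53 and 3.06 log2 CPM in injured 6 hpi libraries. Replicate 2 was thus the highest at both times. The libraries low for this list were also those low for ganglion cell markers, and the part of ganglion cell content was not tested. The AP-1 subunit gene jun had 1015, 1031 and 1444 CPM in injured 12 hpi libraries and 843, 1258 and 873 CPM in injured 6 hpi libraries. For atf3, a stress-induced partner of AP-1 proteins, the values were 225, 250.3 and 348 CPM at 12 hpi, against 192, 350.5 and 193 CPM at 6 hpi. The injured libraries all lay above the control libraries for this gene, which held 115, 122 and 127 CPM at 12 hpi, against 113, 63.6 and 134 CPM at 6 hpi. For fosab, 12 hpi replicates 2 and 3 and 6 hpi replicate 2 were high, with 51.2, 226 and 296 CPM at 12 hpi, against 37.0, 233 and 64.8 CPM at 6 hpi. For egr1 the values were 60.0, 86.0 and 56.3 CPM at 12 hpi, against 25.5, 122 and 58.7 CPM at 6 hpi. Of the list, klf6a (higher), egr3 and klf2b (lower) had an unadjusted p under 0.05, 3 of 42 beside 4.26% of all genes. The Krüppel-like factor gene klf6a had 9.80, 29.9 and 20.7 CPM at 12 hpi, against 6.38, 12.8 and 9.18 CPM at 6 hpi. Both lower genes rested on injured 6 hpi replicate 2, the library with high keratin, which held 9.86 CPM of egr3 and 12.4 CPM of klf2b while every other injured library held at most 0.127 CPM of either.

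Innate immune genes had 23 of 35 above 0 and a median log2 fold change of 0.26, with 7 higher and 1 lower under an unadjusted p of 0.05, beside 2.29% and 1.97% of all genes. In control eyes 1 of these 8 genes had the same sign, beside 51.7% of all higher and 53.6% of all lower genes under that threshold. In control libraries il1b, irf8, cxcl18b, cxcl8b.1 and isg15 had only 0 to 3.33 CPM, so their sign there is uncertain. The interferon regulatory factor gene irf1b had 4.90, 16.2 and 9.70 CPM in injured 12 hpi libraries, against 1.198, 4.07 and 1.06 CPM in injured 6 hpi libraries. The times did not overlap, and the log2 fold change was 2.27 ± 0.69, against −0.18 in control eyes. The inflammatory cytokine gene il1b had 0, 32.5 and 0.282 CPM at 12 hpi, against 0, 0.512 and 0 CPM at 6 hpi. Nearly all of its signal was thus in 12 hpi replicate 2. That library also held most of cxcl18b (0, 13.2 and 2.21 CPM at 12 hpi) and of irf8 (0.0392, 3.27 and 0 CPM at 12 hpi). The other higher genes were irf1b, isg15, ticam1 and irf9. The ubiquitin-like interferon target isg15 had 2.43, 5.61 and 0 CPM at 12 hpi, against 0, 0 and 0.0423 CPM at 6 hpi. The chemokine gene cxcl8b.1 had 0 CPM in the 3 libraries of 12 hpi and 0, 3.07 and 0.761 CPM at 6 hpi. Replicate 2 of 12 hpi also held the high macrophage share. Over 18 tested macrophage and microglia genes 17 were above 0 with a median of 2.204, which was −2.96 without that library. Their mean level was −2.26, 2.59 and −2.06 log2 CPM at 12 hpi and −2.13, 0.14 and −2.33 log2 CPM at 6 hpi. Of the 27 listed macrophage genes 1 had 0 counts in all 6 injured libraries, and the part of these cells in the immune values was not tested. The mean level of the innate immune list was 0.13, 1.5 and 0.68 log2 CPM at 12 hpi, against −0.04, 0.92 and −0.13 at 6 hpi. Its lowest libraries were those low for ganglion cell markers, and the part of ganglion cell content was not tested either. Without 12 hpi replicate 2 the median of the innate immune list was 0.22 and the log2 fold change of irf1b was 1.78. Without injured 6 hpi replicate 2 the median was 0.70, with 30 of 38 above 0, and the log2 fold change of irf1b was 3.18.

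The times did not overlap for 3 of 32 heat shock genes, 4 of 48 hypoxia and glycolysis genes and 2 of 38 unfolded protein and ATF4 genes, beside 8.65% of all genes. The inducible chaperone gene hsp70l (chr8:4798158-4800911, plus strand) had 6787, 4791 and 6767 CPM in injured 12 hpi libraries, against 11110, 13870 and 11890 CPM in injured 6 hpi libraries. All 3 libraries of 12 hpi were below all 3 of 6 hpi, and the log2 fold change was −1.01 ± 0.27 (unadjusted p = 0.00167). Control eyes had 6764, 6819 and 2645 CPM at 12 hpi, against 9971, 8224 and 9287 CPM at 6 hpi, with a log2 fold change of −0.76, and the difference between the 2 changes had an unadjusted p of 0.522. Of the 32 heat shock genes, hsp70l included, 14 were above 0 and 18 below, with a median of −0.06. The times did not overlap for 1 higher and 2 lower genes of this list, beside 4.23% and 4.42% of all genes. The small heat shock gene hspb8 had 1.097, 3.66 and 2.02 CPM at 12 hpi, against 0 CPM in the 3 libraries of 6 hpi. With the 6 hpi group set to 3 counts in all the ratio was 57.1-fold, which allows for counting error only. The 95% interval of the fitted log2 fold change was wide, from 4.055 to 13.31. Control eyes had 0.392, 1.009 and 2.995 CPM of hspb8 at 12 hpi, against 0.118, 0 and 1.96 CPM at 6 hpi, which overlapped. DESeq2 called this gene (adjusted p = 0.00728). The lactate dehydrogenase gene ldha had 533, 543 and 525 CPM at 12 hpi, against 415, 305 and 401 CPM at 6 hpi, without overlap, with a log2 fold change of 0.51 ± 0.13. It was the only gene under an unadjusted p of 0.05 among 48 of hypoxia and glycolysis, beside 4.26% of all genes, and the median of the list was 0.001. Phosphoglucomutase, pgm2, had 10.97, 10.8 and 16.1 CPM at 12 hpi, against 4.36, 6.69 and 4.02 CPM at 6 hpi, and DESeq2 called it with an adjusted p of 0.0495.

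The unfolded protein and ATF4 list had 2 genes higher and 2 lower at an unadjusted p under 0.05 out of 38, beside 2.29% and 1.97% of all genes. The endoplasmic reticulum chaperone gene hspa5 had 262, 193 and 197 CPM at 12 hpi, against 233, 389 and 293 CPM at 6 hpi, with 12 hpi replicate 1 inside the 6 hpi range. The gene herpud1, which acts in the degradation of misfolded proteins, had 58.1, 54.3 and 60.3 CPM at 12 hpi, against 64.0, 80.3 and 77.3 CPM at 6 hpi, without overlap. The transcription factor genes ddit3 and atf5a were the higher pair, with log2 fold changes of 0.96 and 0.66. Among 45 cell death and survival genes 23 were above 0 and the median was 0.002. At an unadjusted p under 0.05 there were 2 higher and 3 lower, beside 2.29% and 1.97% of all genes. The times did not overlap for 2 higher and 4 lower genes of this list, beside 4.23% and 4.42% of all genes. On the lower side were gadd45gb.1 (log2 fold change −1.19) and the p53 target genes cdkn1a and mdm2. The cell cycle inhibitor gene cdkn1a had 3.76, 1.83 and 4.19 CPM at 12 hpi, against 9.78, 9.03 and 4.82 CPM at 6 hpi. The gene mdm2, which encodes the ubiquitin ligase of p53, had 54.5, 57.2 and 61.6 CPM at 12 hpi, against 64.6, 68.2 and 79.6 CPM at 6 hpi. In both the times did not overlap. On the higher side the Bcl-2 family gene bcl2l10 had 26.5, 23.7 and 33.3 CPM at 12 hpi, against 16.8, 19.1 and 17.8 CPM at 6 hpi. Of 31 cell cycle genes 25 were below 0, with a median of −0.34, while in control eyes 14 were above 0 and the median was −0.05. Without injured 12 hpi replicate 2 the median was −0.08, with 12 of 31 above 0, and without 12 hpi replicate 3 it was −1.13. At an unadjusted p under 0.05 there were 1 higher and 1 lower, beside 2.29% and 1.97% of all genes. The lower gene, stmn1a, a stathmin that destabilizes microtubules, had 5.96, 5.72 and 13.2 CPM at 12 hpi, against 25.0, 27.8 and 18.1 CPM at 6 hpi. Autophagy and lysosome, cholesterol, ribosomal protein and proteasome lists had medians between −0.01 and 0.04, with 1 gene, psme4b, under an unadjusted p of 0.05 (log2 fold change −0.49), beside 4.26% of all genes. The autophagy gene vmp1 had 37.0, 42.6 and 34.9 CPM at 12 hpi, against 39.1, 29.9 and 48.6 CPM at 6 hpi.

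Clock genes with a low p in injured eyes mostly had the same sign in control eyes. Of 48 tested genes of the circadian clock and its light input 10 lay wholly higher and 3 wholly lower at 12 hpi in injured eyes, beside 4.23% and 4.42% of all genes. At an unadjusted p under 0.05 there were 8 higher and 2 lower, beside 2.29% and 1.97% of all genes. The repressor gene ciarta had 179, 179.5 and 184 CPM in injured 12 hpi libraries, against 143, 145 and 129 CPM in injured 6 hpi libraries. Control eyes had 179, 176 and 179 CPM at 12 hpi, against 158, 135 and 132 CPM at 6 hpi, again without overlap. The log2 fold change of ciarta was 0.38 ± 0.11 in injured and 0.33 in control eyes, with an unadjusted p of 0.764 for the difference. The light-induced period gene per2 had 12.8, 12.4 and 16.6 CPM at 12 hpi, against 8.29, 6.28 and 9.01 CPM at 6 hpi in injured eyes. Its relative per1a had 49.7, 56.4 and 55.3 CPM at 12 hpi, against 35.6, 33.1 and 36.3 CPM at 6 hpi, and neither gene overlapped between the times. The nuclear receptor gene rorca had 15.99, 21.2 and 9.32 CPM at 12 hpi, against 21.8, 26.4 and 29.9 CPM at 6 hpi. The photolyase gene cry5 had 1.96, 2.14 and 3.34 CPM at 12 hpi, against 5.70, 2.15 and 2.88 CPM at 6 hpi, overlapping. Its span overlaps that of foxred1 on the opposite strand, which averaged 253 counts in injured libraries beside 50 to 119 counts of cry5. Of the 10 clock genes under an unadjusted p of 0.05 in injured eyes 9 had the same sign in control eyes. In control eyes 7 clock genes were higher and 2 lower under that threshold, beside 3.05% and 2.5% of all genes. Hours after injury and hour of the day cannot be told apart within the injured libraries, since the clock hour of each collection is not given.

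**Figure D5:**
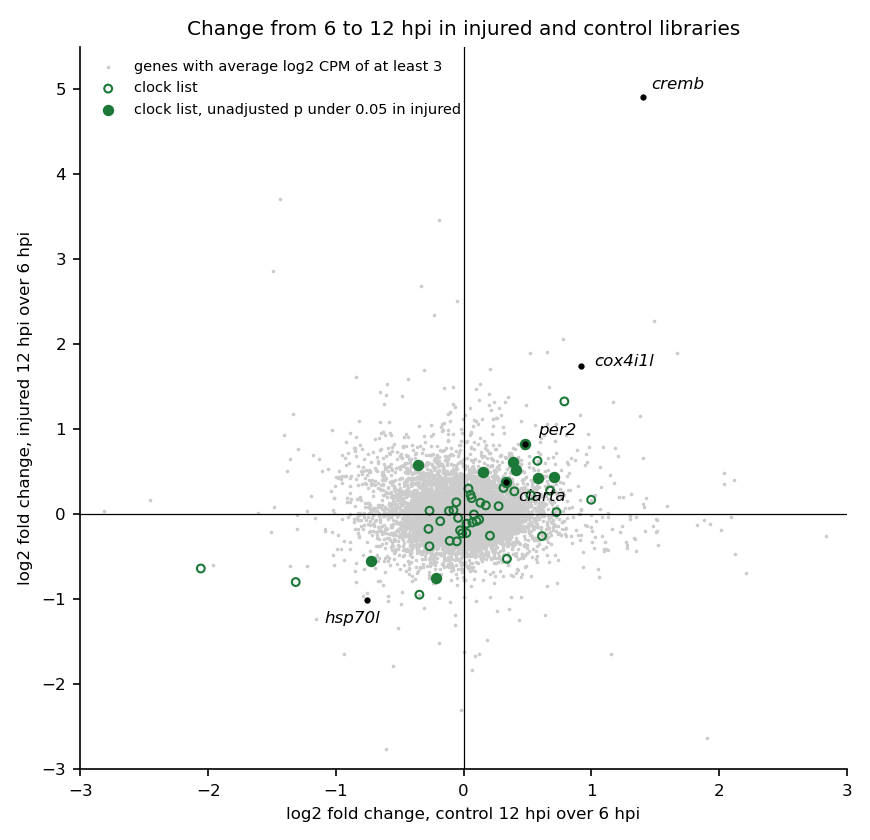
Log2 fold change (12 hpi over 6 hpi) in injured eyes (vertical axis) against control eyes (horizontal axis) for genes with a mean log2 CPM of 3 or more; 10 genes lie outside the axes. Green circles are clock genes, filled where the unadjusted p in injured eyes was under 0.05: 9 of the 10 such genes have the same sign in both, while over all plotted genes r was −0.06.

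The other genes picked because their times did not overlap, as was so for 8.65% of all genes, came from varied functions. The Polycomb gene cbx7a had 100, 241 and 254 CPM at 12 hpi, against 54.5, 57.6 and 69.6 CPM at 6 hpi in injured eyes (log2 fold change 1.71 ± 0.49), with replicate 1 again the lowest of 12 hpi. The tRNA methyltransferase gene trmt44 had 25.0, 21.2 and 16.2 CPM at 12 hpi, against 12.8, 9.61 and 10.8 CPM at 6 hpi, and its control log2 fold change was −0.44. The RNA helicase gene DDX17, zgc:113348 and zgc:66474 were also among the 12 higher genes, with log2 fold changes of 0.61, 0.83 and 0.57. The span of DDX17 overlaps that of gga1 on the opposite strand, which averaged 2042 counts in injured libraries beside 860 to 1795 counts of DDX17. On the lower side crtac1a, a secreted calcium-binding protein gene, had 4.82, 9.11 and 14.1 CPM at 12 hpi, against 27.7, 29.4 and 30.5 CPM at 6 hpi. The mitochondrial import gene timm29 had 5.25, 3.31 and 4.05 CPM at 12 hpi, against 14.1, 6.92 and 10.2 CPM at 6 hpi. Both sets of libraries were apart, as they were for rbp3, a retinoid-binding protein gene of photoreceptors, which had 1089, 1231 and 674 CPM at 12 hpi, against 2054, 1363 and 1660 CPM at 6 hpi. For zgc:153911 the high 6 hpi value was that of replicate 2, at 119 CPM beside 30.2 and 28.4 CPM. The remaining lower genes, phkg1a, WDR1, stam2, tut1, apof and si:ch211-210c8.6, had log2 fold changes of −1.19 to −0.53.

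The same hours in control eyes gave a similar picture in number. No gene of 17527 passed (0%, smallest adjusted p = 0.43), 973 (5.55%) had an unadjusted p under 0.05, and 1737 (9.91%) did not overlap; DESeq2 called 30 and limma voom 0. The headers give each library an S number, and some of these numbers recur. The 2 sets of libraries used here were inferred from this, and neither labels nor headers name them. By this inference 2 control 6 hpi libraries fell in another set than the other libraries compared, and all 6 injured libraries in 1 set. The direct test of whether the change with time differed between injured and control eyes called 0 genes, with 843 (4.81%) under an unadjusted p of 0.05, while DESeq2 called 15 and limma voom 0. Among genes with a mean log2 CPM of 3 or more, 113 of 181 that were higher in injured eyes at an unadjusted p under 0.05 (62.4%) had the same sign in control eyes, and 21 were under that threshold in both, which is 11.6% of the injured and 6.4% of the control genes. Of 188 lower genes 112 (59.6%) had the same sign and 14 were under the threshold in both, 7.4% of the injured and 6.6% of the control genes. With opposite signs, 3 of the 181 and 6 of the 188 were under the threshold in both. Of all 9032 genes at this level, 327 were higher and 213 lower in control eyes under that threshold. The share of all 9032 genes with the same sign was not computed. Their log2 fold changes had r = −0.06 between injured and control eyes. With no limit on mean log2 CPM, genes under the threshold in injured eyes had the same sign in control eyes less often. These were 208 of 402 higher genes (51.7%) and 185 of 345 lower genes (53.6%). The genes under the threshold in both with the same sign included cox4i1l, crema, ciarta, cry2, nfil3-6 and atf5a on the higher side. On the lower side they included hsp70l and cry3b.

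The genes with the smallest p in the difference between injured and control eyes were icn2, pde6ha, cep78, si:dkey-248g15.3 and krt97. The cone phosphodiesterase subunit gene pde6ha had 3183, 3305 and 2006 CPM at 12 hpi, against 3596, 2774 and 3088 CPM at 6 hpi in injured eyes, which overlapped. In control eyes it had 3761, 3823 and 4603 CPM at 12 hpi, against 1877, 1969 and 2271 CPM at 6 hpi, which did not. Of the rod and cone list 8 of 46 genes were above 0 in injured eyes with a median log2 fold change of −0.20, and 39 of 46 in control eyes with a median of 0.33. In control eyes 16 of the 46 were higher at an unadjusted p under 0.05, beside 3.05% of all genes. The injured median rested on 12 hpi replicate 3, without which it was 0.05 with 26 of 46 above 0. Keratocan, kera, a proteoglycan of the cornea, had 175, 459 and 136 CPM at 12 hpi, against 426, 345 and 477 CPM at 6 hpi in injured eyes. In control eyes it had 285, 196 and 200.1 CPM at 12 hpi, against 78.3, 36.3 and 32.2 CPM at 6 hpi, without overlap. The log2 fold changes of kera were −0.70 in injured and 2.21 in control eyes, with an unadjusted p of 0.00105 for the difference. For krt97, a keratin, icn2 and si:dkey-248g15.3 the injured 6 hpi signal was mainly that of replicate 2, with 301, 38.2 and 73.9 CPM. In control eyes replicate 3 of 12 hpi was the highest library, with 52.0, 28.3 and 27.3 CPM of these genes. That library also held 264 CPM of the keratin list, beside 60.2 to 114 CPM in the other control libraries. This sum includes krt97 and icn2. With same-numbered injured and control libraries of each time as pairs, a block added after seeing the data, krt97 was called for the difference (edgeR's Benjamini-Hochberg adjusted p = 0.000831), while icn2 and si:dkey-248g15.3 had unadjusted p of 0.014 and 0.00167.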

How the data were processed

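Per the file headers, the authors deposited 1 table per time point that gives total read counts of each gene in each library, not normalized, for 25281 genes. Only these counts were used; the number of count columns without a sample was 0. The submitters' processing notes name the build GRCz11; the aligner, the annotation release and the use of strand are not given in the sources used here. Gene names and coordinates are those of the tables. The headers mark injured 6 hpi replicate 1, and no other library compared here, as trimmed. Amplified reads carry no molecular identifiers, so intervals from counts would cover counting error only.

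The counts of all 18 libraries were fitted in 1 model with a mean per group (edgeR 4.0.16 in R 4.3.3, quasi-likelihood test, TMM factors, filterByExpr with a minimum count of 10), and 17527 genes were tested. Contrasts were injured 12 minus 6 hpi, control 12 minus 6 hpi and their difference, with Benjamini-Hochberg adjustment and a threshold of 0.05. Fold changes are log2 values with a standard error derived from the F statistic, and CPM use TMM library sizes. The common biological coefficient of variation was 0.517. The steps were tested on simulated data. Alternatives were DESeq2 1.42.0, limma 3.58.1 (voom with sample quality weights), RLE factors, and no or a stricter filter. Others were the inferred set as a covariate, the replicate number as a block, only the libraries compared, and leaving out each library in turn.

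Members and gene lists were chosen with earlier results of these data known. Of 979 listed symbols 921 matched a table name and 14 matched through a symbol table. Named genes were up to 12 each way among the genes called. Since none was called, the 12 were those of smallest p with a mean log2 CPM of 3 or more whose times did not overlap. To these came a set of injury, signalling and clock genes, up to 4 per list with an unadjusted p under 0.05, and 5 of the difference. Same-numbered injured and control libraries deviated together at 6 hpi (r = 0.226, 0.347 and 0.213) but not at 12 hpi (r = −0.188, −0.052 and 0.236), and the submitters' design text calls the control eyes contralateral without saying which libraries share fish, so a fit with these pairs as a block within each time was added for the difference. The shares of cell type markers were compared by an exact permutation test. Within groups, no pair of libraries agreed within sampling noise.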

Additional observations from a re-analysis of the deposited data

Results flagged for a closer look

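The result for 1 gene was singled out, among the genes named here, because injured and control eyes went opposite ways. This gene was named for its small p in the difference between injured and control eyes, a choice that favours opposite directions. The centrosome gene cep78 had 0.588, 0.856 and 1.27 CPM in injured 12 hpi libraries, against 0, 0.16 and 0.0846 CPM in injured 6 hpi libraries. In control eyes it had 0.049, 0.0561 and 0 CPM at 12 hpi, against 1.65, 1.05 and 2.45 CPM at 6 hpi. The injured change minus the control change was 8.73 on the log2 scale (edgeR, unadjusted p = 0.00037, adjusted p = 0.99). DESeq2 called this difference. All values were low, and fitted fold changes near 0 CPM depend on the prior count.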

How the results depend on the processing

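The count of genes called was 0 for injured, control and their difference with RLE factors, without a filter and with a stricter filter. It was also 0 for each with the inferred set of libraries as a covariate and with limma voom. By DESeq2 it was 13 for injured eyes, 30 for control eyes and 15 for the difference, and with only the libraries compared it was 0 for injured eyes, 14 for control eyes and 0 for the difference. Leaving out 1 library gave 0 to 1 calls in injured eyes (cishb, without injured 6 hpi replicate 3) and 0 to 1 in control eyes (cux1a, without control 12 hpi replicate 2), and 0 for the difference throughout. At an unadjusted p under 0.05, injured eyes had 1266 genes without injured 6 hpi replicate 2 and 591 when replicate 3 was the one left out at 6 hpi. The replicate numbers did not pair the injured libraries (r of same-numbered deviations 0.437, 0.23 and −0.211). A replicate block within each time, which pairs same-numbered injured and control libraries and was added after seeing the data, called 1 gene for the difference (krt97), with 704 at an unadjusted p under 0.05. The replicate block called 0 genes in each comparison, with 668, 918 and 801 at an unadjusted p under 0.05 in injured, control and difference, and under it egr1 had a log2 fold change of 0.0046 and vmp1 of 0.016, opposite to the values in the report. Under limma voom egr1 had 0.42, socs3a 0.33 and the heat shock list a median of −0.13. With 1 library left out, medians ranged from −0.11 to 0.003 for heat shock, 0.073 to 0.89 for ion channel and −1.13 to −0.082 for cell cycle genes. They also ranged from −0.07 to 0.51 for AP-1, −0.34 to 0.05 for rod and cone, −0.06 to 0.20 for axon guidance, −0.27 to −0.02 for respiratory chain, −0.01 to 1.01 for regeneration-associated and 0.013 to 0.20 for JAK/STAT genes.

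With 1 library left out, the log2 fold change ranged from −0.41 to 0.68 for egr1, −0.36 to 0.66 for socs3a, −0.31 to 10.9 for il1b, −0.68 to 1.71 for isl2b, −0.10 to 1.35 for rbpms2b, −0.044 to 0.51 for atf3, −0.20 to 0.15 for vmp1, −0.12 to 0.70 for emb and −0.28 to 0.041 for pde6ha. The difference in share of counts, in percentage points, ranged from −0.0011 to 0.172 for ganglion cell, −3.67 to 1.21 for rod and cone, −0.0549 to 0.0343 for bipolar, −0.00477 to 0.00296 for amacrine, −0.0276 to 0.0618 for Mueller glia and −0.00172 to 0.0122 for macrophage genes. It ranged from −5.00e-05 to 0.000525 for pigment epithelium and from −2.22e-06 to 0.000171 for lens genes. As a mean of log2 CPM the difference for neutrophil genes was −0.104, opposite to its share. The cause of each such shift was not tested. Of the other named log2 fold changes none turned sign among the alternatives that leave all libraries in. The list medians under the alternatives were added after seeing the data. With 3 libraries a group, and few counts for genes under 1 CPM, smaller differences were not detectable.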

Other observations

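Genes of 2 further cell types lay wholly higher at 12 hpi as a share of counts. The horizontal cell list held 0.00516%, 0.00439% and 0.005% of counts in injured 12 hpi libraries, against 0.00337%, 0.00407% and 0.00376% in injured 6 hpi libraries. The oligodendrocyte list held 0.00381%, 0.0039% and 0.0496% at 12 hpi, against 0.00216%, 0.00366% and 0.00225% at 6 hpi, with replicate 3 of 12 hpi far above the rest. For each list the exact two-sided permutation p was 0.1, the smallest that 3 libraries against 3 can give, and 0.7 after adjustment over the cell type lists. In control eyes the horizontal cell share was 0.00507%, 0.00559% and 0.00407% at 12 hpi, against 0.00525%, 0.0059% and 0.00325% at 6 hpi, which overlapped. The oligodendrocyte share there was 0.00533%, 0.00378% and 0.0135% at 12 hpi, against 0.00489%, 0.0074% and 0.00388% at 6 hpi, also overlapping. As a mean of log2 CPM, the oligodendrocyte list had −0.03, −0.72 and 4.69 in injured 12 hpi libraries. Against −0.23, 0.58 and −0.46 in injured 6 hpi libraries, these overlapped, while the horizontal cell list did not overlap.

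The inhibitor of apoptosis gene birc5a, which also acts in cell division, had 0.784, 0.467 and 1.27 CPM in injured 12 hpi libraries, against 0.192, 0.128 and 0.0846 CPM in injured 6 hpi libraries. Its log2 fold change of 2.60 was opposite to the median of the cell cycle list, and it did not pass the adjusted test. The potassium channel gene kcnk9 had 0.509, 0.895 and 0 CPM at 12 hpi and 0 CPM in the 3 libraries of 6 hpi. The ganglion cell marker rbpms2b had 53.3, 247 and 412 CPM at 12 hpi, against 84.5, 297 and 102 CPM at 6 hpi, high and low in the same libraries as isl2b. The embigin gene emb had 11.6, 40.7 and 51.6 CPM at 12 hpi, against 22.5, 40.9 and 21.4 CPM at 6 hpi, and the period gene per1b had 358, 347 and 333 CPM at 12 hpi, against 297, 264 and 299.9 CPM at 6 hpi.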
